A study of Mus musculus with 36 samples.

Results

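Small nucleolar RNAs (snoRNAs) and small Cajal body RNAs (scaRNAs) were taken as the features whose gene symbol begins with Snord, Snora or Scarna, which gave 147 of the 40205 features counted in each library. They comprised 99 Snord genes (box C/D snoRNAs), 39 Snora genes (box H/ACA snoRNAs) and 9 Scarna genes. The libraries came from neurosphere cultures of C57BL/6J mouse neural stem cells (NSCs) and from the extracellular vesicles (EVs) these cultures secreted. The NSCs were dissociated from fetal dorsal telencephalon on gestational day 12.5. For each of 3 pregnancies (sets 3, 4 and 5), tissue was pooled by sex into 1 female and 1 male culture, used at passages 7 to 10 and kept for 5 days with control medium (0 mg/dL) or with 120 or 320 mg/dL ethanol. Every culture and dose gave 1 EV and 1 cell library, so the 36 libraries made 12 groups of 3, one for each combination of location, sex and dose. The study's methods name the mice C57BL/6J (Ai14), and its EV fraction is the pellet of an ultracentrifugation of filtered, concentrated culture medium. The RNA was depleted of ribosomal RNA before strand-marking libraries were made.

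Box C/D snoRNAs guide the methylation of ribose in ribosomal and spliceosomal RNA, and box H/ACA snoRNAs guide the conversion of uridine to pseudouridine. ScaRNAs carry the same boxes and act in Cajal bodies on spliceosomal RNAs. A few C/D RNAs, U3, U8 and U13 among them, serve in the processing or acetylation of ribosomal RNA precursors, are transcribed from promoters of their own and are found in nucleoli, whereas most mammalian snoRNAs are cut out of the introns of host genes.

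The sequences below are those of 4 of the 5 genes that had counts and of 3 that had none, shown to tell the classes and the U3 copies apart. They were read from GRCm39 at the positions of GENCODE vM39. Capitals mark the first TGATGA (the C box motif) and the last CTGA (the D box motif), or, in the H/ACA RNA Snora73a, the ACA near its end.
Snord3a, U3 (chr10:40134463-40134675, plus strand): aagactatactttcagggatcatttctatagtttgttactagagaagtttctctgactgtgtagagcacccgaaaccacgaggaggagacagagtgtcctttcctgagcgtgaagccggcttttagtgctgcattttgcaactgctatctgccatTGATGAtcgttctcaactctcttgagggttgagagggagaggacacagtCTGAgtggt
Snord3b1, the U3 copy at 0 counts (chr11:87334063-87334277, plus strand): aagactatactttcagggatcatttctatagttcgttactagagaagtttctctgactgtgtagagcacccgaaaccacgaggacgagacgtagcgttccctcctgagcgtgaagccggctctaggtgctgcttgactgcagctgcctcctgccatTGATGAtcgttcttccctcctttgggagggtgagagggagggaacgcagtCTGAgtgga
Snord118, U8 (chr11:68964253-68964387, plus strand): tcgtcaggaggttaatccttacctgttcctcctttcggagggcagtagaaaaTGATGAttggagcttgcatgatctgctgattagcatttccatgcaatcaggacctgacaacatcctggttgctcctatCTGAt
Snord89 (chr1:39587826-39587935, minus strand): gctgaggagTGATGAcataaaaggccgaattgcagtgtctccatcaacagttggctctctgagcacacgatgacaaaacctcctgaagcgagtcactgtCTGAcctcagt
Scarna2, its last 150 of 414 bases (chr3:108461654-108461803, minus strand): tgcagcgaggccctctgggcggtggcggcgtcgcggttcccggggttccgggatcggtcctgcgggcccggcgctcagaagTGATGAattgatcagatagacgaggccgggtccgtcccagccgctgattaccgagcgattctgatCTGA
Snord116l1, at 0 counts (chr7:59544368-59544461, minus strand): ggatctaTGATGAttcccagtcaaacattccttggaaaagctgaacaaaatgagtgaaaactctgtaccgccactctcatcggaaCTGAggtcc
Snora73a, at 0 counts (chr4:132080086-132080290, minus strand): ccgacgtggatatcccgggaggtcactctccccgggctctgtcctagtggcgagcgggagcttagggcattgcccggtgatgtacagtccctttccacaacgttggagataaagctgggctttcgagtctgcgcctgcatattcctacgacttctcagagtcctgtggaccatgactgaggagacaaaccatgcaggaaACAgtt

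TGATGA stood within the first 25 bases of 66 of the 99 C/D genes (66.7%) and CTGA within the last 25 bases of 98 (99.0%). Windows of the same length at the ends of 32851 RefSeq promoter sequences held them in 0.472% and 12.6%. ACA stood within the last 10 bases of 37 of 39 H/ACA genes (94.9%), against 9.35% of the promoter sequences. In Snord3a and in Snord118 TGATGA lay further in, as the sequences show. Only the strand of the RNA was searched. Snord3b1, Snord3b2, Snord3b3 and Snord3b4, 4 further U3 genes on chromosome 11, were identical to each other and shared 187 of 210 aligned bases (89.0%) with Snord3a on chromosome 10. Of the 17 Snord116 copies, C/D RNAs of an imprinted cluster, 14 were identical to each other. Reads of identical copies cannot be told apart by sequence. In GENCODE vM39 Snord118 lay in an intron of Tmem107 and Snord89 in an intron of Gm15832, while Snord3a, Snord13 and Scarna2 overlapped exons of Gm67393, Gm63719 and Gm65135 on their own strand.

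Most of these genes had no counts. In all 36 libraries together, 142 of the 147 (96.6%) were at 0, beside 9136 of all 40205 features (22.7%). The H/ACA class was at 0 throughout, in 39 of 39 genes, Snora73a and Snora73b (U17, a ribosomal RNA processing factor) among them. In the scaRNA class 8 of 9 were at 0, including Scarna6, Scarna10, Scarna13 and Scarna17, and in the C/D class 95 of 99, including all 17 Snord116 copies and all 4 Snord3b copies. No feature of the Snord113, Snord114 or Snord115 families was among the rows analysed. The 5 genes with counts were Snord3a (U3), Snord118 (U8), Snord13 (U13), Snord89 and Scarna2. A count of 0 allows 3 counts of a library's total, which is up to 0.0543 CPM (counts per 1000000 counts) in the deepest cell library and up to 3.13 CPM in the shallowest EV library, with counting error alone considered. No member other than these 5 reached even 1 count in any library, so that the same 142 had 3 or fewer counts in every library.

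The genes with and without counts were divided by their overlap with other counted genes. By the spans of RefSeq genes (assembly GRCm38.p6, used here for neighbourhood only), 138 members lay inside the span of another counted gene, and 138 of these 138 were at 0. The 4 members that overlapped no other counted gene, Snord118, Snord13, Snord89 and Scarna2, had counts. Snord3a and the 4 Snord3b copies had no row in that table. The same division held among all other features, where 6574 of 6662 genes inside another gene (98.7%) were at 0, against 141 of 9631 (1.46%) that overlapped another gene without lying inside it and 1732 of 22291 (7.77%) that overlapped none. The spans of GENCODE vM39 divided the genes less cleanly. Of 139 members inside a counted gene of the same strand, 138 were at 0, and of 7 that overlapped none, 3 were. Among other genes, 1602 of 1835 (87.3%) inside one of the same strand were at 0. So were 2128 of 2913 (73.05%) inside one of the opposite strand only, and 1939 of 16416 (11.8%) that overlapped none. Genes of other kinds were thus at 0 as well, among them Sox2, a defining NSC gene, in all 36 libraries. How the authors' counting treated reads that fall in 2 features, and its strand setting, are not given in the sources used here, and their part in the zeros was not tested.

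**Figure D1:**
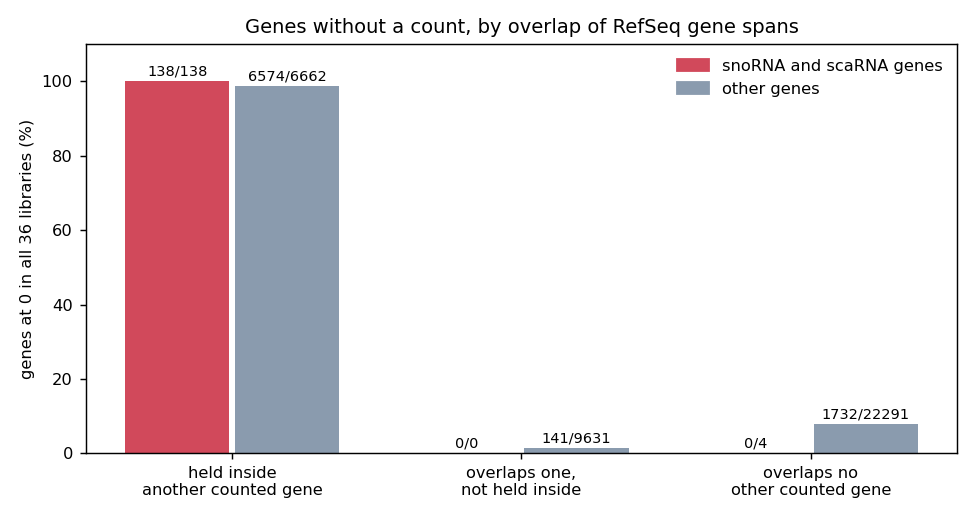
Share of genes at 0 counts in all 36 libraries (vertical axis, percent), for snoRNA and scaRNA genes and for all other genes, by how their RefSeq span overlaps another counted gene; each bar carries its number of genes at 0 over the genes in its class. All 138 members inside another gene and 98.7% of the other such genes were at 0, while 4 of 4 members without overlap had counts.

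Members were also divided by the introns and exons of genes on the same strand. In GENCODE vM39, 55 of the 147 lay in an intron of such a gene and 92 overlapped an exon of one. Of these, 53 (96.4%) and 89 (96.7%) were at 0. An exon of any annotated transcript placed a member in the exon class, even where it lies in an intron of other transcripts. This split therefore does not separate members cut from introns from the others, and the part of intron position was not tested. The 5 genes with counts had a median length of 135 bases, and the shortest was Snord13 (104 bases). The 142 genes at 0 had a median of 94 bases, and 59 of them were at least as long as Snord13. The part of length in the zeros was not tested. The host genes themselves were counted. Of 90 counted hosts on the same strand, 89 had counts and 80 had counts in every library, with a median over hosts of 88.0 CPM in cells, CPM being taken here after TMM (trimmed mean of M values) scaling of the library sizes. Snhg14, which holds the 17 Snord116 copies, had 23.5, 31.5 and 41.9 CPM in cells (lowest, median and highest of 18) and 7.40, 13.8 and 25.5 in EVs. Rpl13a, a ribosomal protein gene that holds 4 members, had 155, 270 and 441 CPM in cells and 269, 577 and 935 in EVs.

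Library totals ran from 959217 to 5509952 counts in EVs and from 26566061 to 55282322 in cells, so EV values carried the larger counting error. Of 8 NSC markers, 7 reached a median of 1 CPM in both locations and Sox2 was at 0. In both locations 4 of 4 neuronal, 2 of 3 astrocyte and 2 of 3 oligodendrocyte markers reached it too. Of 4 microglial, 2 endothelial and 2 red blood cell markers none did in cells, and 1 microglial and 1 endothelial marker did in EVs, with P2ry12 and Aqp4 at 0 throughout. A lower level in these bulk libraries does not tell fewer cells of a type from less RNA per cell. Among the EV libraries the 3 of the male culture of set 3 lay below the other 15 for Snord3a, Snord118 and Scarna2. Among the cell libraries the female one of set 3 at 320 mg/dL lay above the other 17 for all 5 genes. Most results that rest on these libraries are given with and without them.

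Snord3a, the U3 RNA of the small subunit processome, was the most abundant of the 5 in both locations. It had 28832 to 147663 counts in cell libraries and 25 to 3185 in EV libraries. Its level in CPM per kilobase, on library totals, was 4596, 6964 and 26100 in cells (lowest, median and highest of 18) and 122, 1248 and 4102 in EVs. In cells Snord118 followed with a median of 491 and Snord13 with 358, and their ranges overlapped (288 to 1291 and 214 to 1562). Scarna2 (85.0) and Snord89 (52.1) came last in cells, with ranges of 59.9 to 209 and 32.4 to 199 that overlapped too. Snord3a did not overlap Snord118, nor Snord13 Scarna2, in cells. In EVs the order of medians was Snord3a, Snord118 (592), Snord13 (98.5), Snord89 (31.1) and Scarna2 (17.6), and the ranges of each neighbouring pair overlapped. Vomeronasal and odorant receptor genes were taken as genes that these cells should not use. Their medians were 0.00344 in cells and 0.0125 in EVs, per kilobase of whole gene span with introns (324 genes summed). Per kilobase of exon their level would be higher, and it was not computed. Each of the 5 was above the receptor level in 18 of 18 cell libraries, and in EVs Snord3a, Snord118 and Scarna2 were in 18 of 18, Snord13 in 17 and Snord89 in 15.

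The classes differed in their share of the counts. C/D genes took 1044, 1590 and 5917 CPM of the library totals in cells (lowest, median and highest of 18) and 31.3, 342 and 1083 in EVs. The scaRNA class took 24.8, 35.2 and 86.4 CPM in cells and 0.894, 7.28 and 14.7 in EVs. The H/ACA class took 0 in every library. The 2 ranges of the scaRNA class did not overlap, and those of the C/D class did. Without Snord3a the C/D class had medians of 112 CPM in cells and 92.6 in EVs.

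All 36 libraries entered the comparison of EVs with cells, a quasi-likelihood test in edgeR that had sex and dose as terms. In that fit 80.5% of the 15281 genes tested were past an adjusted p of 0.05, 38.4% higher and 42.2% lower in EVs. All 5 snoRNA and scaRNA genes with counts were tested, and 3 were lower in EVs, 1 was higher and 1 did not pass. Snord3a, Snord13 and Scarna2 fell, and Snord118 rose in this fit but not with the pairs of libraries matched. The median log2 fold change was -0.65 over the 4 tested C/D genes and -1.57 for the scaRNA, with -0.08 over all genes tested and none of the H/ACA class to test. With library totals in place of TMM scaling the median of all genes moved to -0.88 and the calls from 5861 higher and 6441 lower to 3435 higher and 9279 lower, and in DESeq2 they were 16946 higher and 6310 lower with a median of 1.73. Each value below is thus relative to the other RNA of the libraries. The 3 libraries of a culture count as independent in this test.

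Snord3a had 697, 1100 and 5811 CPM in cells (lowest, median and highest of 18) and 27.8, 371 and 1248 CPM in EVs. It was lower in EVs in 17 of 18 pairs of EV and cell library and in 6 of 6 cultures. The ranges overlapped. The log2 fold change was -1.76 (SE 0.33, edgeR adjusted p = 9.3e-06), and -1.15 (SE 0.25, adjusted p = 1.7e-04) without set 3. Scarna2, a guide RNA of the Cajal body, had 16.6, 27.3 and 90.4 CPM in cells and 0.908, 12.2 and 18.7 in EVs. It was lower in EVs in 18 of 18 pairs, although the ranges overlapped. Its log2 fold change was -1.57 (SE 0.23, edgeR adjusted p = 1.2e-07).

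Snord13, a guide for acetylation of the small ribosomal subunit RNA, had 15.8, 26.3 and 170 CPM in cells and 0, 14.8 and 34.3 in EVs (lowest, median and highest of 18). It was lower in EVs in 15 of 18 pairs and in 5 of 6 cultures. The log2 fold change was -1.23 (SE 0.36, edgeR adjusted p = 0.0020), and without set 3 it was -0.36 (adjusted p = 0.081). It was -0.79 (adjusted p = 0.029) without the female set 3 cell library at 320 mg/dL and -1.24 (adjusted p = 0.055) in control libraries alone. Snord89, a C/D RNA, had 2.50, 4.18 and 22.9 CPM in cells and 0, 4.54 and 9.97 in EVs. The EV values rest on 0 to 28 counts per library, 3 of 18 of them 0. Its log2 fold change was -0.06 (SE 0.29, edgeR adjusted p = 0.86), and without set 3 it was 0.49 (adjusted p = 0.038), the opposite direction. With library totals it was -0.84 (adjusted p = 0.0060) and without the filter on low counts -0.69 (adjusted p = 0.023).

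Snord118, the U8 RNA of large subunit processing, had 27.7, 49.1 and 182 CPM in cells and 3.33, 125 and 272 in EVs. Its EV values spread on both sides of the cell values. It was higher in EVs in 12 of 18 pairs, and the log2 fold change was 1.06 (SE 0.38, edgeR adjusted p = 0.012). With each EV library matched to its cell library as a block, the log2 fold change was 0.66 (SE 0.48, adjusted p = 0.21). After summing each culture's counts across doses it was 0.28 (adjusted p = 0.71), and without set 3 it was 1.76 (SE 0.22, adjusted p = 9.6e-08). Without the female set 3 cell library at 320 mg/dL, which lay above the other cell libraries, it was 1.42 (adjusted p = 0.0016). With library totals it was 0.26 (adjusted p = 0.51), without set 4 it was 0.72 (adjusted p = 0.22) and without set 5 it was 0.60 (adjusted p = 0.31). Tmem107, whose intron holds Snord118 in GENCODE vM39, stood at 0.27 (SE 0.16, adjusted p = 0.12) on the log2 scale, and at -0.52 (adjusted p = 0.014) with library totals.

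**Figure D2:**
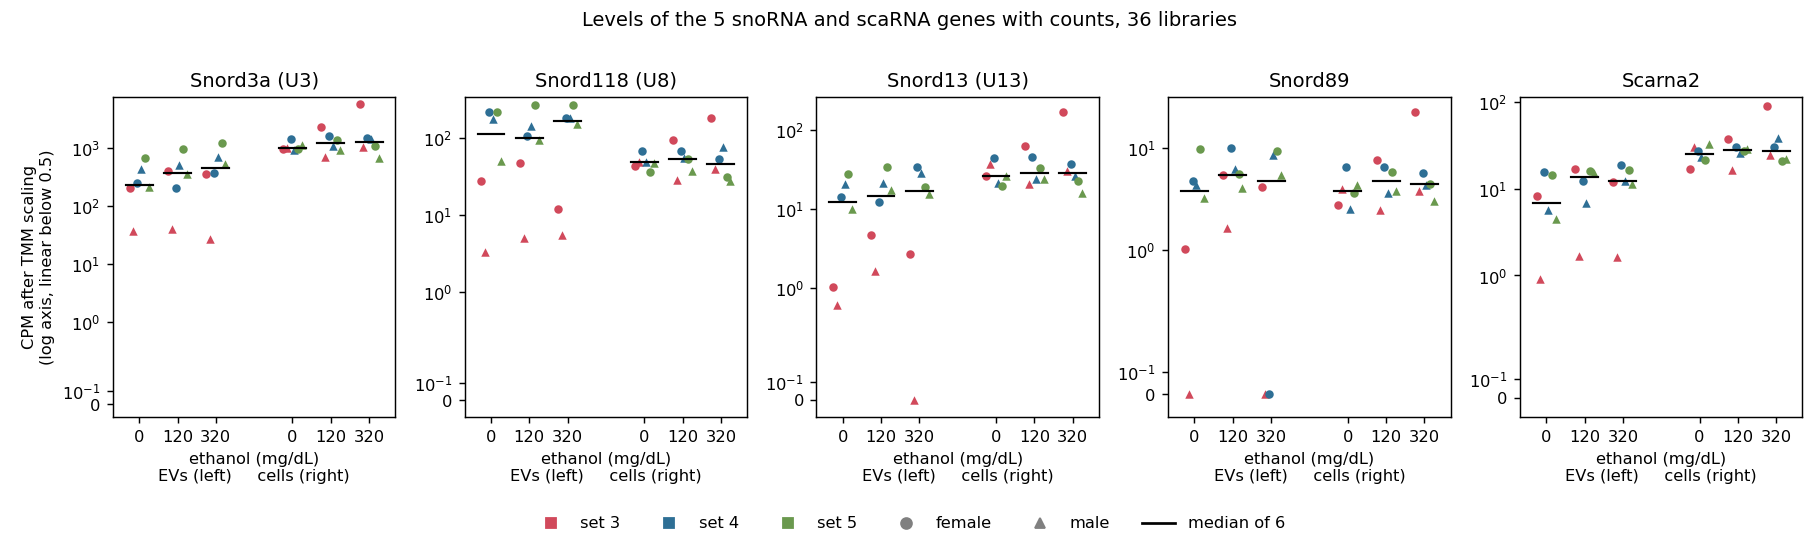
CPM after TMM scaling (vertical axis, logarithmic above 0.5 and linear below it) of each gene with counts in the 36 libraries, by location and ethanol dose; colour marks the pregnancy, shape the sex, and the bar the median of 6 libraries. The red triangles, EVs of the male culture of set 3, lie at 27.8 to 41.5 CPM for Snord3a and 3.33 to 5.46 for Snord118, below the other EVs, and the red circle of cells at 320 mg/dL is the highest cell library for each gene.

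The relation of U8 to U3 within a library needs no scaling. Cell libraries held 0.0285, 0.0400 and 0.0519 Snord118 counts per Snord3a count (lowest, median and highest of 18), and EV libraries 0.0324, 0.257 and 0.859. Only the EV library of the female culture of set 3 at 320 mg/dL (0.0324) lay within the range of the cells, and the other 17 EV libraries lay above all 18 cell libraries. With counts summed over doses, the ratio was higher in EVs in 6 of 6 cultures, by 1.18 to 4.00 on the log2 scale. Of the counts on the 5 genes, Snord3a took 89.3% to 93.3% in cells and 50.2% to 92.2% in EVs, and Snord118 took 2.66% to 4.71% in cells and 2.99% to 43.1% in EVs.

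All 10 ratios between the 5 genes were compared between EVs and cells over the 6 cultures, by exact sign flips, two-sided. The smallest possible p is 0.031 with the cultures taken as independent, although the female and male culture of a pregnancy share a litter. Of the 10 ratios, 4 reached 0.031, each in one direction in 6 of 6 cultures, and their p adjusted over the 10 ratios was 0.078. The mean log2 difference of Snord3a to Snord118 was -2.49 ± 1.01 (SD, n = 6 cultures), and that of Snord118 to Snord13 was 2.34 ± 0.49. Snord3a to Snord89 had -1.52 ± 0.66 and Snord13 to Snord89 had -1.37 ± 1.02 (SD, n = 6 cultures). In the 3 EV libraries of the male culture of set 3, Snord89 had 0 to 1 counts and Snord13 0 to 2. The direction of the ratios with Snord89 in that culture, and so their p, thus rests on very few counts. Snord3a to Snord13 (-0.15 ± 1.17), Snord3a to Scarna2 (-0.35 ± 0.93) and Snord13 to Scarna2 (-0.20 ± 1.73) were not in one direction in all cultures, and the other three ratios were higher in EVs in 5 of 6 cultures.

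**Figure D3:**
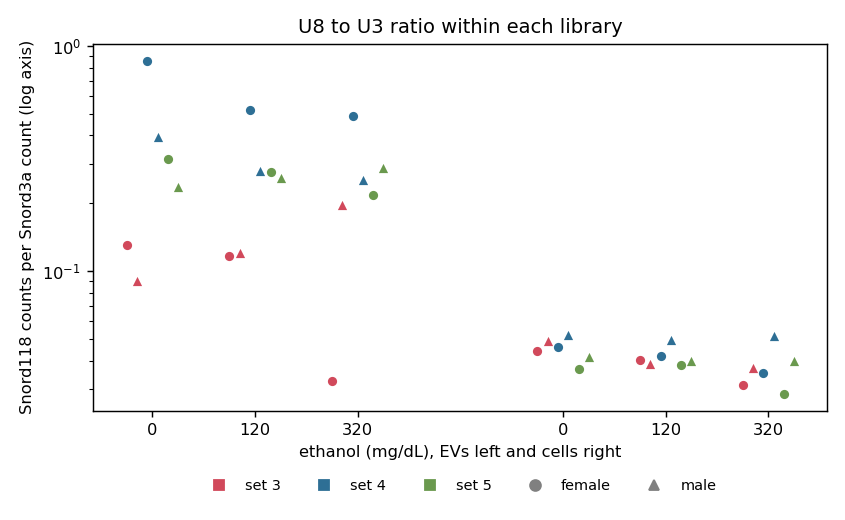
Snord118 counts per Snord3a count (vertical axis, logarithmic) in each of the 36 libraries, by location and ethanol dose; colour marks the pregnancy and shape the sex. Cells lie between 0.0285 and 0.0519, and 17 of 18 EV libraries lie above them, with set 3 the lowest pregnancy in EVs.

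The EV to cell difference varied with the pregnancy. The values are log2 CPM of the EV library minus those of the cell library of the same culture and dose, 6 pairs for each pregnancy. Snord118 was lower in EVs in 6 of 6 pairs of set 3 (-3.94 to -0.63, median -2.67), and higher in 6 of 6 pairs of set 4 (0.64 to 1.86) and of set 5 (0.08 to 3.11). Snord3a was lower in 6 of 6 pairs of set 3 (median -4.06) and of set 4 (median -1.55), and in 5 of 6 of set 5 (median -0.51). Snord13 had a median of -5.24 in set 3 and of -0.15 in both other sets. The EV libraries of set 3 held 0 to 18 Snord13 counts (median 1.5), so its values there lie near the floor. Scarna2 was lower in 6 of 6 pairs of each set, with medians of -3.09, -1.47 and -0.85. Where an EV library had 0 counts, in 1 pair for Snord13 and 3 for Snord89, the prior count of 1 sets the value.

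A term for location by pregnancy, with the pair as a block, was added after these values were seen. In this fit the 3 doses of a culture count as independent, although each pregnancy gave only 1 female and 1 male culture. Against set 3, 3.8% of all genes tested differed in set 4 (0.732% higher and 3.06% lower) and 15.9% in set 5 (6.17% higher and 9.72% lower). Of the 5 genes, 2 were higher in set 4 (Snord118 and Snord13) and 4 in set 5 (these with Snord3a and Snord89), and 0 were lower. Of 4 other short RNAs, 3 were higher in set 5 as well, Rmrp by 2.22 (adjusted p = 0.023), Rn7sk by 1.85 (adjusted p = 0.043) and Rpph1 by 1.52 (adjusted p = 0.034), while Terc (1.16, adjusted p = 0.43) did not pass, and none of the 4 passed in set 4. For Snord118 the EV to cell ratio was higher than in set 3 by 3.63 (SE 0.55, adjusted p = 4.6e-04) in set 4 and by 4.25 (SE 0.56, adjusted p = 2.1e-05) in set 5 on the log2 scale. With counts summed over doses these were 3.37 (adjusted p = 0.125) and 3.95 (adjusted p = 0.0135). Without the male culture of set 3 they were 2.98 (adjusted p = 0.025) and 3.61 (adjusted p = 0.0026), and the calls on Snord3a (1.87, adjusted p = 0.081) and Snord89 (1.72, adjusted p = 0.12) in set 5 were lost. Other short RNAs moved with the male culture of set 3. Its 3 EV libraries had 277 to 478 CPM of Rmrp and 82.6 to 126 of Rnu11, against 470 to 3993 and 473 to 2030 in the other 15, and their totals were 959217 to 3354842 counts. The part of these in the result was not tested.

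**Figure D4:**
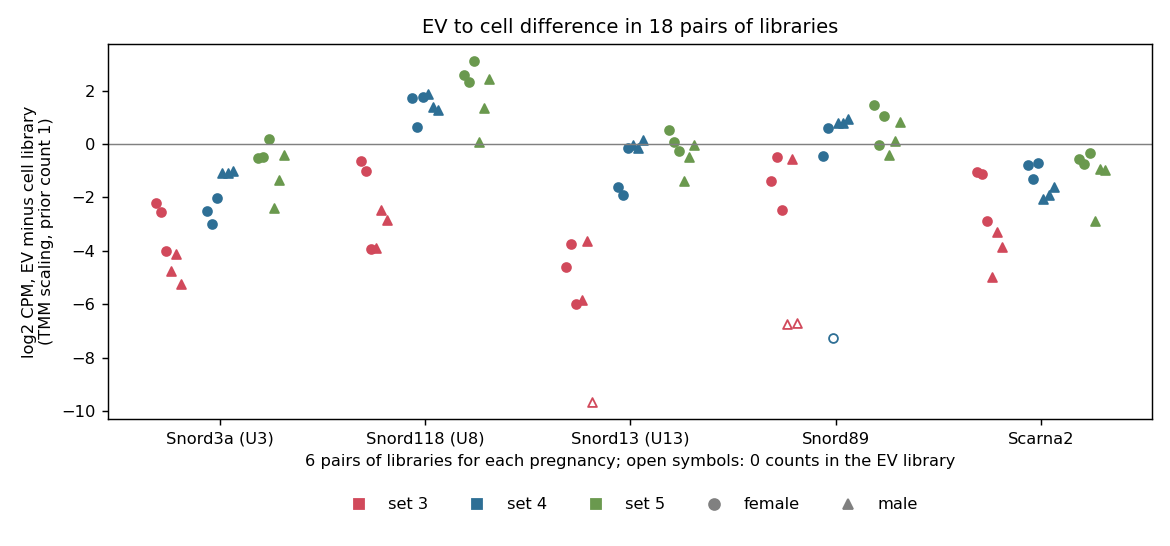
Log2 CPM of the EV library minus that of the cell library of the same culture and dose (vertical axis), for each gene and pregnancy, 6 pairs each; triangles are male and circles female cultures, and open symbols mark EV libraries with 0 counts. For Snord118 all 6 pairs of set 3 lie below 0 and all 12 pairs of sets 4 and 5 above it.

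The proteins that bind these RNAs are coded by mRNAs that mostly fell in EVs. Of 25 genes of snoRNA particles and Cajal bodies, all were tested, 19 were lower and 3 higher, and the median of their log2 fold changes was -1.45. The C/D core proteins all fell, namely the methyltransferase Fbl (-1.45, SE 0.16), Nop56 (-2.07), Nop58 (-1.88) and Snu13 (-1.47). So did the H/ACA core proteins, the pseudouridine synthase Dkc1 (-2.13, SE 0.26), Nhp2 (-1.32), Nop10 (-1.65) and Gar1 (-1.56). Of 9 assembly factors 7 were lower, Naf1 the most (-2.17), and Pih1d1 was higher (1.27). Among Cajal body and transport genes Coil, the marker protein of Cajal bodies (1.39, SE 0.14), and Wrap53, which brings scaRNAs there (0.90), were higher, and Smn1 (-1.36) and Phax (-1.26) lower. Of the end processing genes Tgs1 (-1.67) and Exosc10 (-1.61) were lower, and the value of Parn was 0.11 (adjusted p = 0.28 from edgeR) and -0.73 with library totals (adjusted p = 2.3e-07). With library totals the other named genes kept their direction, and Wrap53 did not pass (0.10, adjusted p = 0.63). Of 87 host genes tested, 16 were higher and 52 lower, with a median of -0.79, beside 38.4% and 42.2% of all genes.

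**Figure D5:**
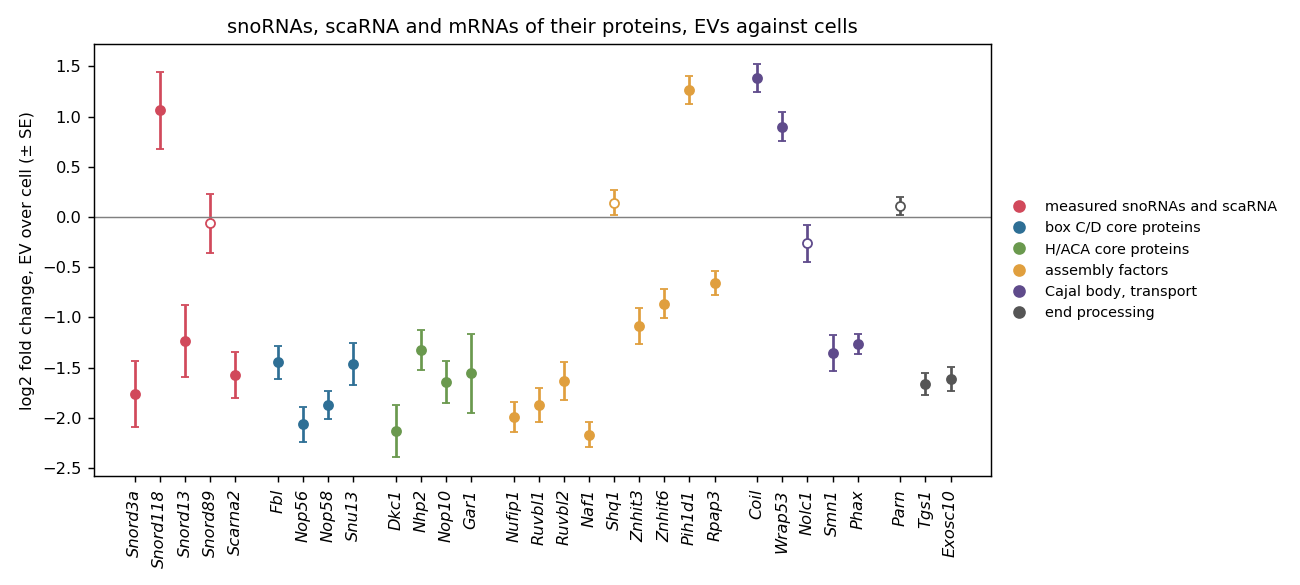
Log2 fold change of EVs over cells with its SE (vertical axis) for the 5 RNAs and for mRNAs of the proteins that build, modify or move their particles; filled points passed an adjusted p of 0.05 in edgeR and open points did not. The 8 core protein mRNAs lie between -2.13 and -1.32, near Snord3a, Snord13 and Scarna2, while Snord118, Pih1d1, Coil and Wrap53 lie above 0.

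Ethanol was compared with control medium within each location, with the culture as a block. At 120 mg/dL in EVs 0.00842% of 11880 genes passed and at 320 mg/dL 0.0842% (0.0168% higher and 0.0673% lower with ethanol). In cells 0% of 17792 passed at 120 mg/dL and 0.0393% at 320 (0.0225% higher and 0.0169% lower). None of the 5 genes passed in any of these 4 comparisons in edgeR. In EVs 1 and 2 of them had an unadjusted p under 0.05 at 120 and 320 mg/dL, and in cells 0 did. Of all genes tested, 744 and 1410 had such a p in EVs and 444 and 1525 in cells. The H/ACA class had no counts to test.

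The smallest p was that of Snord3a in EVs at 320 mg/dL. EVs held 36.9, 236 and 695 CPM at 0 mg/dL (lowest, median and highest of 6 cultures), 41.5, 384 and 992 at 120 and 27.8, 452 and 1248 at 320. It was above the control of the same culture in 5 of 6 cultures at both doses, while the groups overlapped widely. The log2 fold change was 0.65 (SE 0.21, edgeR adjusted p = 0.21) at 320 mg/dL and 0.37 (SE 0.21, adjusted p = 0.82) at 120. DESeq2 put it past the threshold at 320 mg/dL, with 0.67 (SE 0.20, adjusted p = 0.019). The male culture of set 3 was the exception in direction at 320 mg/dL, and without it edgeR gave 0.83 (SE 0.21, adjusted p = 0.22).

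Scarna2 in EVs had the smallest p at 120 mg/dL. It had 0.908, 6.93 and 15.8 CPM at 0 mg/dL, 1.66, 13.6 and 17.1 at 120 and 1.64, 12.3 and 18.7 at 320. It was above its control in 5 of 6 cultures at 120 mg/dL and in 6 of 6 at 320. The log2 fold changes were 0.62 (SE 0.25, edgeR adjusted p = 0.79) and 0.67 (SE 0.26, adjusted p = 0.30). These values rest on 1 to 66 counts per library, and both doses share the control libraries. Snord118, Snord13 and Snord89 in EVs had log2 fold changes between 0.16 and 0.42 with SEs of 0.27 to 0.40. With library totals in place of TMM scaling the values at 320 mg/dL were 0.33 for Snord3a, 0.36 for Scarna2, -0.08 for Snord118 and -0.02 for Snord13, so the direction of the last pair depended on the scaling.

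In cells all 5 fold changes were above 0 at 320 mg/dL, from 0.18 for Snord118 to 0.56 for Snord89 on the log2 scale, with SEs of 0.29 to 0.35. Snord89 had the smallest p at both doses (edgeR adjusted p = 1 at 120 mg/dL and 0.71 at 320). It had 2.53, 3.79 and 6.53 CPM in cells at 0 mg/dL, 2.50, 4.80 and 7.69 at 120 and 3.05, 4.43 and 22.9 at 320. A single library held the highest value, and without the female set 3 library at 320 mg/dL the log2 fold changes at that dose were 0.18 for Snord89, 0.16 for Snord3a, 0.10 for Scarna2, -0.05 for Snord13 and -0.09 for Snord118. That library had 5811 CPM of Snord3a, where the other 17 cell libraries had 697 to 2371. Rn7sk and Rny1, other short structural RNAs, were at 37470 and 1541 CPM in it, against 3985 to 14330 and 126 to 376 in the others. Rnu12 was at 391 CPM, within the 63.0 to 416 of the others. Cdk8, a protein-coding gene, was at 86340 CPM in it, against 1744 to 23060 in the others. The same library had the lowest total of the cell libraries (26566061 counts).

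The EV to cell ratio at each dose was compared with that at 0 mg/dL, with the pair of libraries as a block. Of 18728 genes tested, 0.00534% passed at 120 mg/dL and 0% at 320, and of the 5 genes 0 passed in edgeR and 0 had an unadjusted p under 0.05. DESeq2 called 0 of them as well. The smallest p at 120 mg/dL was that of Scarna2 (log2 change of the ratio 0.55, SE 0.56, adjusted p = 1) and at 320 mg/dL also that of Scarna2 (0.25, SE 0.56, adjusted p = 1, from edgeR). The SEs ran from 0.56 to 1.16 over the 5 genes, so changes of the ratio of the size of these values were not detectable in this fit. The fit held no term for location by culture, so differences between cultures in the EV to cell ratio entered its spread. Without the female set 3 pair at 320 mg/dL the values at that dose were 0.87 for Snord118 (SE 1.05) and 0.55 for Scarna2 (SE 0.61).

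Female and male cultures were compared in EVs and in cells separately, dose being a term of the fit, and the 3 libraries of a culture count as independent. In EVs 11.1% of 11037 genes passed, 7.03% higher and 4.06% lower in females, and of the 5 genes 1 was higher, Scarna2. Scarna2 had 8.22, 15.8 and 18.7 CPM in female EVs (lowest, median and highest of 9) and 0.908, 5.64 and 15.1 in male EVs. The 2 ranges overlapped, and the lowest 3 values were the EVs of the male culture of set 3. The log2 fold change was 1.18 (SE 0.35, edgeR adjusted p = 0.038) and 1.36 (SE 0.29, adjusted p = 0.0038) with pregnancy as a block. It was 0.79 (adjusted p = 0.088) without the male culture of set 3, 1.25 (adjusted p = 0.13) without set 4 and 1.51 (adjusted p = 0.18) without set 5. With counts summed over doses, 3 cultures against 3, it was 1.23 (adjusted p = 0.33).

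The same block brought Snord118 past the threshold in EVs, with 1.30 (SE 0.36, adjusted p = 0.015), where the fit without it gave 0.86 (SE 0.72, adjusted p = 0.43). Without the block it was 0.81 (adjusted p = 0.67) with counts summed over doses and 0.28 (adjusted p = 0.80) without the male culture of set 3, and the blocked fit was not run on either. Snord118 had 11.8, 183 and 272 CPM in female EVs and 3.33, 94.7 and 184 in male EVs. In cells 5.83% of 17052 genes passed, 3.2% higher and 2.63% lower in females, and 0 of the 5 did in edgeR. An unadjusted p under 0.05 was held by 3 of the 5 and by 3796 of all genes tested. Of the 5, Snord89 had the smallest p there. It had 2.78, 5.82 and 22.9 CPM in female cells (lowest, median and highest of 9) and 2.50, 3.78 and 4.40 in male cells, with a log2 fold change of 0.89 (SE 0.30, edgeR adjusted p = 0.087). DESeq2 put it past the threshold (0.86, adjusted p = 0.045), and without the female set 3 library at 320 mg/dL edgeR gave 0.54 (adjusted p = 0.14).

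Within a location the 5 genes varied together. Over the 18 cell libraries, Pearson's r of log2 CPM between pairs of the 5 genes ran from 0.84 to 0.96 (median 0.89, 10 pairs), and without the female set 3 library at 320 mg/dL from 0.59 to 0.90. Over the 18 EV libraries it ran from 0.58 to 0.88 (median 0.77). It was not computed without the EV libraries of the male culture of set 3, which lay lowest for Snord3a, Snord118 and Scarna2. These are descriptions, since libraries share cultures and all 5 genes share the depth and scaling of a library.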

How the data were processed

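RNA from EVs and from the NSCs that secreted them was sequenced in 36 libraries. The authors removed adapters and duplicates, trimmed reads with Trimmomatic, aligned them to mm39 with STAR and deposited HTSeq counts per gene, with no normalization. The feature type and strand setting of the counting are not given in the sources used here. From these counts, edgeR 4.0.16 in R 4.3.3 (TMM scaling, filterByExpr with a minimum count of 10 and a minimum total of 15, quasi-likelihood F test) was fitted to all genes, with Benjamini-Hochberg adjustment over all genes tested and a threshold of 0.05. SEs were the absolute log2 fold change divided by the square root of F. Log2 CPM used a prior count of 1. DESeq2 1.42.0, other scalings, no filter, other blocks, sums over doses and sets of libraries left out were the alternatives. Only edgeR fits of EVs against cells, of the higher ethanol dose and of sex within each location were tested on simulated data. The fits of location by dose and by pregnancy, with pairs as blocks, with counts summed over doses and in DESeq2 were not. Other values were computed with Python 3.11.15, pandas 2.3.3, numpy 2.4.6 and Biopython 1.88, and drawn with matplotlib 3.10.9.

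EV and cell libraries of a culture and dose came from the same flasks, doses share a culture, and the sexes share a litter, by the labels and the study's methods. Correlations of deviations from the group means over 14921 genes had medians of 0.086 between EV and cell library, 0.33 (EVs) and 0.73 (cells) between doses of a culture, and 0.16 (EVs) and 0.43 (cells) between sexes. No libraries were identical.

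The members and gene lists were chosen with earlier results of these data known. The named genes were the 4 members of each class with most CPM, U3, U8, U13, U17 and the scaRNAs and families given, and the members past the threshold or, where there were none, the one with the smallest p. Snord89 without set 3 and the values by pregnancy were chosen after they were seen. A floor of 3 counts was used for a count of 0. Sequences and positions came from GRCm39 with GENCODE vM39, and neighbouring genes and promoter sequences from RefSeq (GRCm38.p6 for genes). The sequence of 1 gene with counts is not reported here.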

Additional observations from a re-analysis of the deposited data

Results flagged for a closer look

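In groups of 6 libraries of a location and dose, a library was picked out where its gap to the nearest other was large for the group's range (Dixon's test at 95%), which chance does in about 1 in 20 groups. Of 30 groups, 6 had such a library, and 5 of the 6 were the same library, the female set 3 cells at 320 mg/dL. It had 5811 CPM of Snord3a, 182.2 of Snord118, 169.8 of Snord13, 22.9 of Snord89 and 90.36 of Scarna2, where the next library of its dose had 1509, 76.1, 37.6, 5.73 and 38.6. The 5 genes are not independent in 1 library. Its TMM factor was 0.957, against 1.16 to 1.72 in the other 17 cell libraries. The sixth was Snord3a in female set 4 cells at 0 mg/dL, at 1467 CPM with the next at 1137.

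The EV to cell ratio differed between pregnancies by the test of location by pregnancy, which was added after the values were seen. That test takes the 3 doses of a culture as independent, and fewer of its calls remained with counts summed over doses. Against set 3, Snord118 was higher by 3.63 and Snord13 by 4.31 on the log2 scale in set 4. In set 5 Snord118 was higher by 4.25, Snord13 by 4.61, Snord3a by 2.84 and Snord89 by 2.27. In set 3 the EV libraries held only 0 to 18 Snord13 counts (median 1.5) and 0 to 21 Snord89 counts (median 1). Each pregnancy gave 1 female and 1 male culture, so pregnancy cannot be told apart from the preparation of its cultures.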

How the results depend on the processing

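Snord3a and Scarna2 were past the threshold and lower in EVs than in cells under every alternative run. The count of members higher in EVs (1, Snord118) was 0 with library totals, without the filter on low counts, with the replicate block of EV and cell library, with sums over doses and in control libraries alone, and ran from 0 to 2 as 1 pregnancy was left out. As 1 pregnancy was left out, the median log2 fold change of the C/D genes ran from -1.02 to 0.06 and the value of Snord89 from -0.34 to 0.49, the highest of each being without set 3. With library totals these were -1.46 and -0.84. At 320 mg/dL in EVs, and for females against males in cells, DESeq2 called 1 gene where edgeR called 0. For females against males in EVs (1 gene) the count was 2 with pregnancy as a replicate block, 0 with library totals, with sums over doses and without the male culture of set 3, and 0 to 1 as 1 pregnancy was left out. In set 4 against set 3 (2 genes) it was 4 without the filter, 4 in DESeq2 and 0 with sums over doses. In set 5 (4 genes) it was 2 with sums over doses and 2 without the male culture of set 3. The blocks changed no other call. Without its member with most counts the C/D class had a median of 112 CPM in cells and the scaRNA class 0 in cells and EVs, and TMM-scaled the scaRNA class had 12.2 in EVs. The cause of these changes was not tested. Of the summary values, 204 stayed near the main value (a count within a set fold, or a median within an SD). Another 25 moved further and 1 reversed its sign. Of the single-gene values, 453 kept their side of the threshold, and 20 calls were lost and 10 gained. A further 1 passed in the opposite direction (Snord89 without set 3). Depth limits EVs most, where Snord89 had at most 28 counts.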
